A study of Mus musculus with 4 samples.

Results

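MYC and 38 genes of polyamine and pyrimidine synthesis, RNA polymerase I transcription and ribosome assembly were described in DN4 thymocytes, the last thymic stage that lacks both CD4 and CD8. The 39 genes were chosen by function from a written list, and a gene was measured where a probe set of the array carried its symbol alone. This held for 37 of the 39, out of 19938 genes with such a probe set. Ppan and Noc2l were not analysed here. Where a gene had several probe sets, the one with the highest mean stood for it.

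DN4 cells were sorted from 4 mice whose Ikzf1 alleles, which encode the transcription factor Ikaros, were floxed (Ikf/f). All 4 mice received tamoxifen at 50 mg/kg per day by intraperitoneal injection for 4 days, and cells were taken 24 h after the final dose. Mice 129 and 135 also carried Rosa26-CreERT2, a tamoxifen-inducible Cre recombinase (Cre+), and mice 131 and 137 did not (Cre-). Rosa26 is active in nearly all cell types, so deletion could occur outside thymocytes too, and because the control mice lacked the recombinase, loss of Ikaros and the presence of active Cre cannot be told apart. The genetic background, age and sorting gates were not stated in the labels. The question of the design was how gene expression differs when Ikaros is deleted at this stage.

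Ribosomes are built in the nucleolus. RNA polymerase I transcribes the ribosomal RNA precursor, small nucleolar ribonucleoproteins (snoRNPs) modify it, and large sets of processing factors cleave and fold it into the small and large subunits. MYC binds E-box sequences together with MAX and is a general activator of the genes for these steps, and thymocytes that have passed the pre-TCR checkpoint grow and divide rapidly at the DN4 stage.

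Each mouse gave 1 array, and values are log2 expression values made by RMA, so a difference of 1 is a doubling. Values ranged from 3.14 to 14.4, array medians from 6.85 to 6.88, and correlations between arrays from 0.994 to 0.997. Ikzf1 itself stood at 12.06 and 11.99 in Cre+ mice 129 and 135 and at 12.07 and 12.11 in Cre- mice 131 and 137. Where its probes lie relative to the floxed part was not analysed here, so this value is no check of the labels. Xist was at 12.51 and 12.34 in mice 129 and 131 and at 5.29 and 4.93 in mice 135 and 137, which makes 1 mouse of each group female and 1 male. The 10 measured of the fixed markers of early T lineage cells ranged from 8.03 to 13.36. Cd3e was between 12.84 and 13.16, Thy1 between 13.12 and 13.23, and Cd2 between 8.03 and 8.81. Cd8b1, a chain of the coreceptor that DN4 cells lack on their surface, was between 11.50 and 11.91, and Cd4 was between 7.26 and 7.94.

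Most of these growth genes read slightly lower in the Cre+ cells, while Myc differed by -0.00. Of the 37 measured members, 34 had a lower mean in Cre+ than in Cre- mice (91.9%, against 54.1% of all genes), and the median difference, Cre+ minus Cre-, was -0.10 on the log2 scale, a 1.07-fold lower value. Over all genes the median difference was -0.01. Centring, quantile normalization and cyclic loess gave 31, 31 and 32 members with a lower mean. In 24 members both Cre+ mice lay below both Cre- mice (64.9%, against 20.3% of all genes), in 2 both lay above (5.41%, against 16.1%), and in 11 the groups overlapped. Among the 9969 genes above the median level, 52.4% had a lower mean and both Cre+ mice lay below both Cre- mice in 22.8% and above in 20.2%.

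The differences were small against the precision that 2 mice in each group allow. With limma, 0 of the 37 members passed an adjusted p of 0.05 over all 35556 probe sets (0.0% called), and the smallest adjusted p among them was 0.379, for Srm. At an unadjusted p under 0.05 there were 9 members (Srm, Polr1b, Nhp2, Heatr1, Rrs1, Bop1, Rrp12, Utp20 and Noc3l), all lower, against 2.74% of all genes lower at that level and 4.42% of genes above the median level. In a fit limited to the 21789 probe sets with 1 gene symbol, in which 1.22% were called, 0 members passed (10 at an unadjusted p under 0.05, against 9.33% of those probe sets) and the smallest adjusted p was 0.101 from limma. These counts describe the list and are not a test of it. Fewer cells of a type and less RNA per cell cannot be told apart in such bulk samples.

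**Figure D1:**
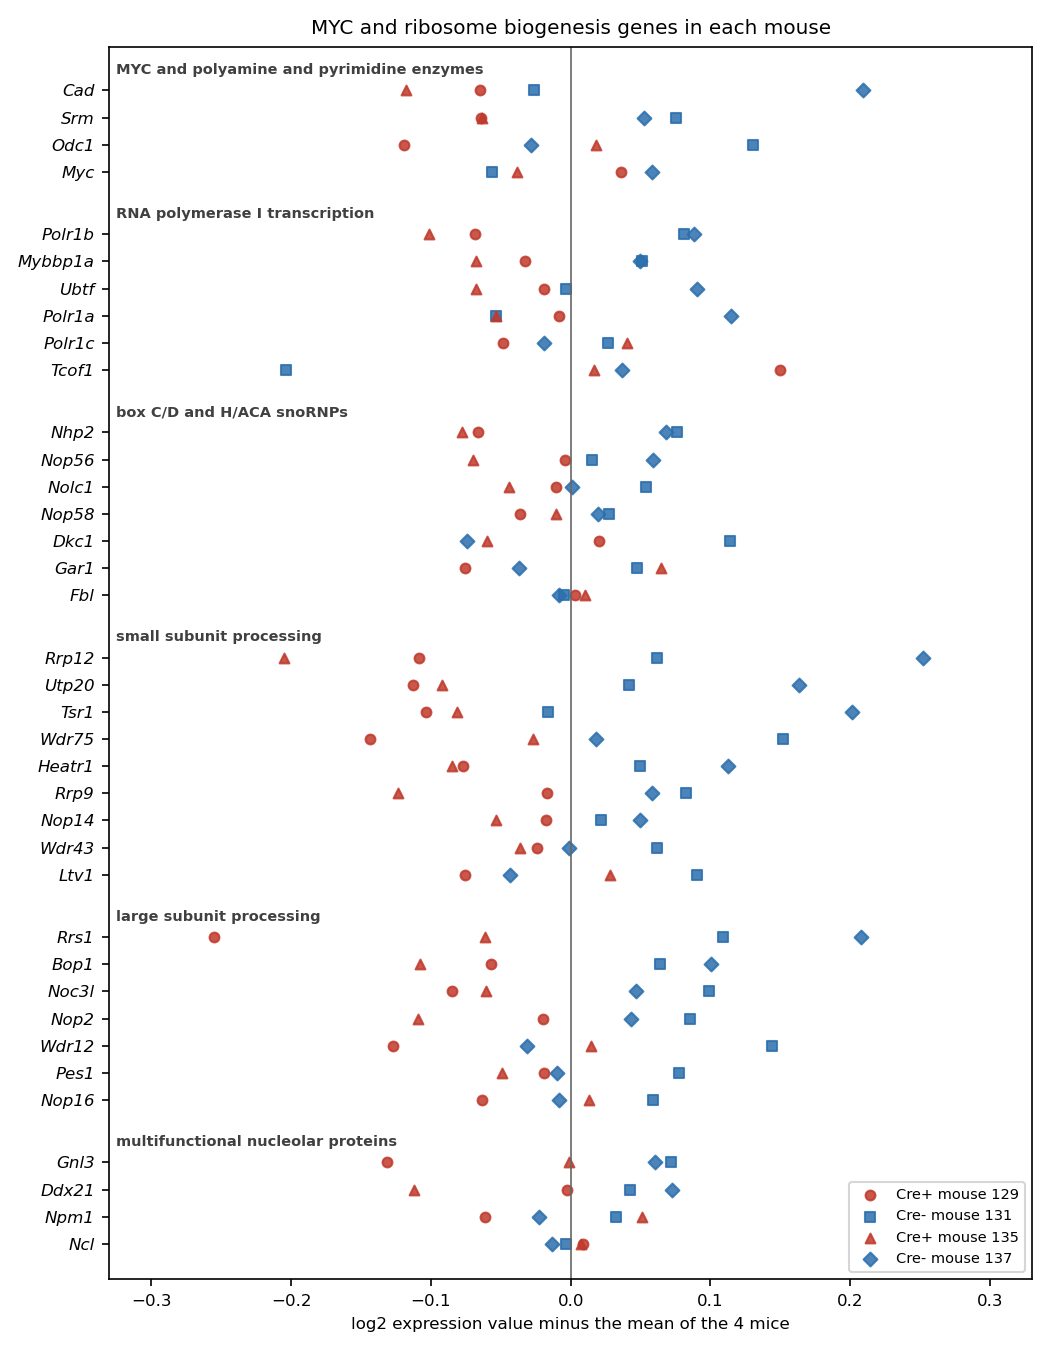
Log2 expression value of each measured member in each mouse, as the distance from the mean of the 4 mice (horizontal axis, log2 units), with genes grouped by step; red symbols are Cre+ mice and blue symbols Cre- mice. In 24 of the 37 genes both red symbols lie left of both blue symbols, and in 2, Fbl and Ncl, both lie right of them.

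The pattern held in each pairing of a Cre+ with a Cre- mouse, whereas the medians within groups were near 0. Mouse 129 minus mouse 131, the female pair, gave a median of -0.10 over the members with 32 of 37 lower. Mouse 135 minus mouse 137, the male pair, also gave a median of -0.10, with 27 lower. The remaining pairings gave -0.08 with 33 lower (129 minus 137) and -0.10 with 30 lower (135 minus 131). Within groups the medians were 0.01 for the Cre+ mice (129 minus 135, 16 of 37 lower) and 0.01 for the Cre- mice (131 minus 137, 15 lower). Single differences depended more on 1 mouse than the median did. Leaving out 1 mouse moved the difference of 23 of the 37 members by over 1.5 times or turned its sign, among them 12 of the 24 without overlap. The other 14 were Srm, Polr1b, Mybbp1a, Nhp2, Nop58, Fbl, Rrp12, Utp20, Heatr1, Nop14, Rrs1, Bop1, Noc3l and Ncl. Mouse 129 or mouse 135 held the lowest value of the 4 in 15 and 17 members, and mouse 131 or mouse 137 the highest in 17 and 14.

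**Figure D2:**
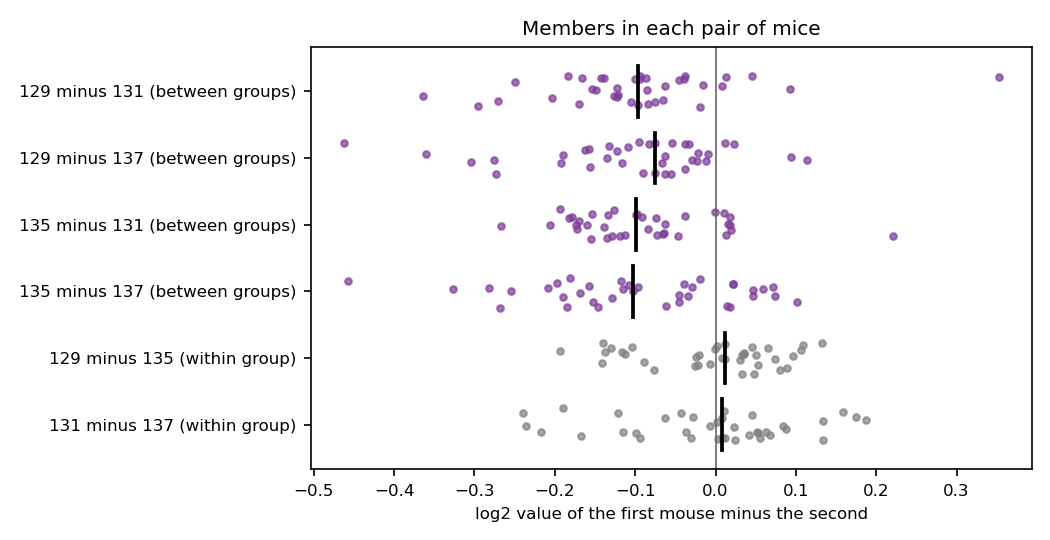
Difference of each member between the mice of a pair (horizontal axis, log2 units; points are the 37 genes with random vertical scatter, black bars are medians), for the 4 pairs between groups in purple and the 2 pairs within groups in grey. The 4 purple medians lie between -0.10 and -0.08, and both grey medians are at 0.01.

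Mouse 131 stood apart in genes that respond to handling and stress. Of 12 measured stress and immediate early genes, 11 had their lowest value in that mouse, and the heat shock gene Hspa1a was at 8.43 there against 11.51, 12.14 and 12.36 in mice 129, 135 and 137. The means of the list were also mostly higher in Cre+ mice, but single values were not so in each pair. The female pair, with mouse 131, gave a median of 0.60 and 1 of 12 lower. The male pair gave a median of -0.01 and 7 of 12 lower. Of the 12 genes 10 had higher means in Cre+ mice (median difference 0.32) and 2 had lower means (16.7%, against 54.1% of all genes). In 5 both Cre+ mice lay above both Cre- mice (41.7%, against 16.1% of all genes). Nr4a1, an immediate early gene of antigen receptor signalling, was at 10.71 and 10.51 in mice 129 and 135 against 9.09 and 10.11 in mice 131 and 137, a difference of 1.01 (SE 0.33). Ier2, another immediate early gene, was at 8.64 and 8.66 against 7.92 and 8.30, a difference of 0.54 (SE 0.15). With limma 0 of the 12 passed an adjusted p of 0.05, and 2 had an unadjusted p under 0.05, both higher. Of all 19938 genes 6.86% had one in either direction, and 821 were higher with one. Without mouse 131 the median of the stress genes was 0.061. That of the members was -0.10, with 29 of 37 lower (51.4% of all genes were). The part of stress and handling in the differences of the members was not tested.

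Promoter sequences were searched for the E-box that MYC and MAX prefer, CACGTG, which reads the same on both strands. RefSeq windows of 300 bases (GRCm38.p6), from 250 bases before to 50 after a transcription start, were given for 31 of the 39 genes. In 7 of the 31 genes (22.6%) a window held this E-box, against 8.09% of 27025 genes with a window. Its first base lay 3 to 41 bases after the start in 6 genes and 60 bases before it in Nop2. Of all windows with the E-box, 15.2% had it after the start. The stretches of 30 bases around it are shown for all 7 genes because they hold the motif; they run 5′ to 3′ on the gene's strand, with the E-box in capitals.
Utp20, chr10:88826765-88826794, minus strand: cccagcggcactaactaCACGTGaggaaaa
Tsr1, chr11:74898092-74898121, plus strand: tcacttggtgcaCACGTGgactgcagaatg
Wdr43, chr17:71616220-71616249, plus strand: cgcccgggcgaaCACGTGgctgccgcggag
Ltv1, chr10:13193092-13193121, minus strand: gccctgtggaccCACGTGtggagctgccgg
Nop2, chr6:125131811-125131840, plus strand: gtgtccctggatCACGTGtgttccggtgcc
Pes1, chr11:3963965-3963994, plus strand: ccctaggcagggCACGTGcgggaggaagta
Mybbp1a, chr11:72441347-72441376, plus strand: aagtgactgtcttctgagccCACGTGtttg
A match describes these letters and is not a binding site. In 6 of these 7 genes both Cre+ mice lay below both Cre- mice, and the groups overlapped in Ltv1. Such a count stands beside 64.9% of all measured members and 20.3% of all genes, and no difference between members with and without the motif was tested.

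Myc, the transcription factor gene at the head of the list (probe set 10424400), was at 12.33 and 12.25 in Cre+ mice 129 and 135 against 12.24 and 12.35 in Cre- mice 131 and 137. The groups overlapped, with a difference of -0.00 (SE 0.05). It was higher in the Cre+ mouse by 0.09 in the female pair and differed by -0.10 in the male pair. The sign of the Myc difference turned to 0.01 after centring of the arrays. Its relatives Mycn and Mycl differed by -0.04 (SE 0.10) and -0.10 (SE 0.12).

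The metabolic genes that MYC is known to activate had lower means. Here and below, paired values are those of mice 129 and 135 (Cre+) and then of mice 131 and 137 (Cre-). Srm, the spermidine synthase gene of polyamine synthesis, was at 12.62 in both Cre+ mice against 12.76 and 12.74 (Cre-), so that its groups did not overlap. The difference was -0.13 (SE 0.03), with the smallest p of the members. Odc1, which encodes ornithine decarboxylase and starts the same pathway, was at 10.56 and 10.70 (Cre+) against 10.81 and 10.65 (Cre-). Its groups overlapped (-0.10, SE 0.08), the difference was -0.022 without mouse 131, and a further probe set gave -0.02 (SE 0.09). Cad, which encodes the enzyme that begins pyrimidine synthesis, was at 10.51 and 10.45 against 10.55 and 10.78. Its difference of -0.18 (SE 0.09) came mostly from mouse 137, and it was -0.06 without that mouse.

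Genes of RNA polymerase I transcription differed among themselves, with a median difference of -0.07 over 6 members. Polr1b, which encodes the second largest subunit of the polymerase, was at 11.26 and 11.23 (Cre+) against 11.41 in both Cre- mice. Its difference of -0.17 (SE 0.04) was larger than the gaps within groups. Polr1a, the gene of the largest subunit, was at 10.26 and 10.22 against 10.22 and 10.38, with overlapping groups (-0.06, SE 0.08). Polr1c encodes a subunit shared with RNA polymerase III and differed by -0.01 (SE 0.06). Ubtf, the upstream binding factor gene, was at 11.26 and 11.21 (Cre+) against 11.28 and 11.37 (Cre-), a difference of -0.09 (SE 0.05) that was -0.040 without mouse 137. Mybbp1a, the nucleolar MYB-binding protein gene, was at 11.13 and 11.09 against 11.21 in both Cre- mice, a difference of -0.10 (SE 0.04). Tcof1, which encodes the polymerase cofactor treacle, went the other way in its mean (0.17, SE 0.11). It was at 10.17 and 10.04 (Cre+) against 9.82 and 10.06 (Cre-), so its groups overlapped and the low value was that of mouse 131, without which the difference was 0.047.

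The snoRNP genes had a median difference of -0.05 over 7 members, which was -0.028 without mouse 131 and -0.072 without mouse 129. Nhp2, a core protein gene of the H/ACA particles that direct pseudouridylation, was at 11.14 and 11.13 (Cre+) against 11.28 and 11.27 (Cre-). Its difference was -0.14 (SE 0.04), while its partners in the same particle, the pseudouridine synthase gene Dkc1 and Gar1, differed by -0.04 (SE 0.08) and -0.01 (SE 0.07) with overlapping groups. Among the box C/D proteins, which guide methylation, Nop56 was at 12.49 and 12.43 against 12.51 and 12.56 (-0.07, SE 0.04). Nop58 was at 11.51 and 11.54 (Cre+) against 11.57 in both Cre- mice (-0.05, SE 0.04). Fbl, the methyltransferase gene fibrillarin, was at 11.38 in both Cre+ mice against 11.37 and 11.36 (Cre-), a difference of 0.01 (SE 0.04). In that probe set both Cre+ mice lay above both Cre- mice. In its other probe set both lay below (-0.05, SE 0.04), so the probe sets of Fbl disagreed in sign. Nolc1, which encodes a snoRNP chaperone, differed by -0.06 (SE 0.05) without overlap.

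Small subunit processing had a median of -0.16 and lower means in 9 of 9 members. Rrp12, which acts in the maturation and export of pre-ribosomes, was at 8.66 and 8.56 (Cre+) against 8.83 and 9.02 (Cre-). The difference of -0.31 (SE 0.10) was 1.24-fold on the linear scale. Utp20, a large scaffold protein gene of the small subunit processome, was at 9.83 and 9.85 against 9.99 and 10.11. It differed by -0.20 (SE 0.07). Heatr1, Wdr43 and Wdr75 encode processome proteins that also act in RNA polymerase I transcription. Heatr1 was at 10.81 in both Cre+ mice against 10.94 and 11.00 (Cre-), a difference of -0.16 (SE 0.05). Wdr75 was at 10.46 and 10.58 against 10.76 and 10.63 (-0.17, SE 0.08), and Wdr43 differed by -0.06 (SE 0.04). Tsr1, which accompanies the late pre-small subunit in the cytoplasm, was at 10.03 and 10.05 (Cre+) against 10.12 and 10.33 (Cre-). Its difference was -0.18 (SE 0.09). It was -0.08 without mouse 137. Rrp9 and Nop14 differed by -0.14 (SE 0.07) and -0.07 (SE 0.06) without overlap. Ltv1, another late factor, was the exception in that its groups overlapped (-0.05, SE 0.08).

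Large subunit processing had a median of -0.13, with lower means in 7 of 7 measured members. Rrs1, which helps to bring the 5S particle into the pre-large subunit, differed about as much as Rrp12. It was at 8.87 and 9.06 (Cre+) against 9.23 and 9.33 (Cre-), a difference of -0.32 (SE 0.10), or 1.25-fold lower. Bop1, Pes1 and Wdr12 encode the 3 proteins of the PeBoW complex. Bop1 was at 10.58 and 10.53 (Cre+) against 10.70 and 10.74 (Cre-), a difference of -0.16 (SE 0.05). Pes1 was at 10.65 and 10.62 against 10.75 and 10.66 (-0.07, SE 0.06), with mouse 137 only just above the Cre+ mice, and differed by -0.024 without mouse 131. Wdr12 was at 10.54 and 10.69 against 10.81 and 10.64, so its groups overlapped (-0.11, SE 0.09; -0.024 without mouse 131), while its other probe set had no overlap and differed by -0.18 (SE 0.09). All 3 genes of the complex had lower means, and only Wdr12 overlapped, in 1 of its probe sets. Noc3l, a pre-large subunit factor gene, was at 10.35 and 10.38 (Cre+) against 10.54 and 10.48 (Cre-), a difference of -0.15 (SE 0.06). Nop2, a ribosomal RNA methyltransferase gene, differed by -0.13 (SE 0.05) without overlap, and Nop16 by -0.05 (SE 0.05) with overlap.

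The abundant nucleolar proteins with several roles did not share a direction. Gnl3, which encodes nucleostemin, was at 10.72 and 10.85 (Cre+) against 10.93 and 10.91 (Cre-), a difference of -0.13 (SE 0.06) that was -0.068 without mouse 129. Ddx21, an RNA helicase gene, was at 11.26 and 11.15 against 11.31 and 11.34 (-0.12, SE 0.05; -0.061 without mouse 135). In both genes the groups did not overlap. Ncl, the nucleolin gene, was at 12.69 and 12.68 (Cre+) against 12.67 and 12.66 (Cre-). Its difference was 0.017 (SE 0.024), smaller than its standard error, although its groups did not overlap. Npm1, the nucleophosmin gene, was at 12.51 and 12.62 against 12.60 and 12.55, with overlapping groups (-0.01, SE 0.05).

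**Figure D3:**
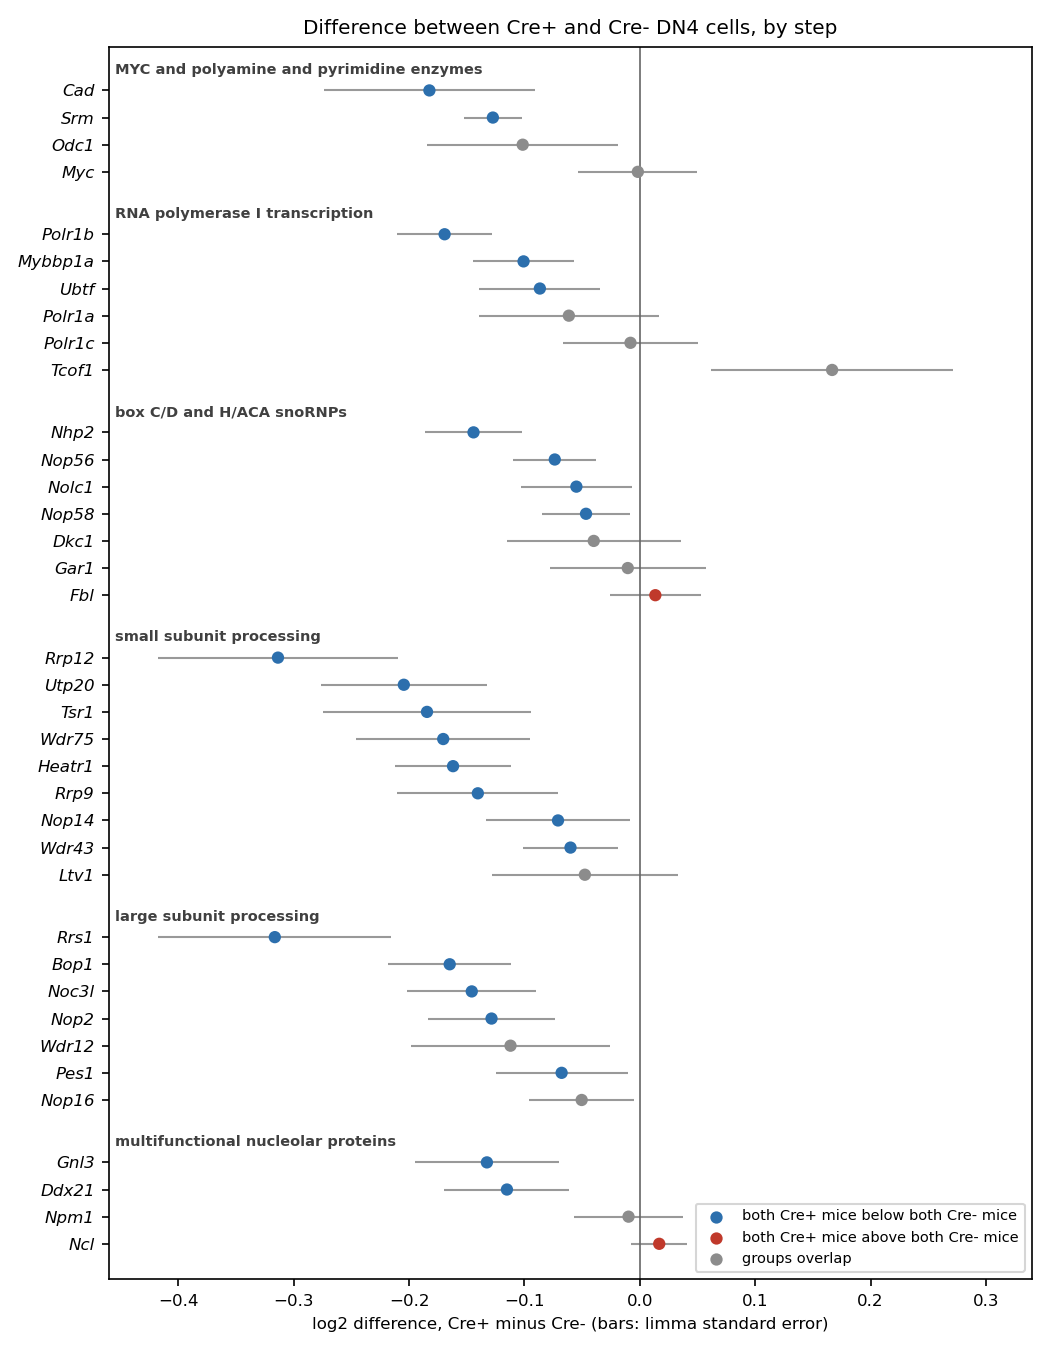
Log2 difference, Cre+ minus Cre- (horizontal axis), of each measured member with limma's standard error as bars, grouped by step; blue points have both Cre+ mice below both Cre- mice, red points both above, and grey points overlap. Rrs1 (-0.32) and Rrp12 (-0.31) lie farthest to the left, Tcof1 (0.17) farthest to the right, and Myc at -0.00.

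Other genes of the pathway, listed by function, were set beside the members. Of 45 measured other small subunit processing genes 39 had lower means (median -0.09), of 52 other large subunit processing genes 44 (median -0.07), and of 15 other RNA polymerase I genes 10 (median -0.06). Together, 93 of these 112 genes had lower means (83.0%, against 54.1% of all genes), and in 71 both Cre+ mice lay below both Cre- mice (63.4%, against 20.3%). With limma 0 of the 112 passed an adjusted p of 0.05, and 11 had an unadjusted p under 0.05, of which 10 were lower (6.86% of all genes had one, and 2.74% were lower with one). Without overlap, the largest differences were those of Nol10 (-0.27, SE 0.09) and Utp23 (-0.26, SE 0.13) for the small subunit, the AAA ATPase gene Mdn1 (-0.19, SE 0.12) and the assembly factor gene Rpf2 (-0.19, SE 0.09) for the large subunit, and Cd3eap (-0.22, SE 0.10) and Polr2l (-0.21, SE 0.04) for the polymerase.

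Cytosolic ribosomal protein genes, whose products these factors assemble, had a median difference of 0.01. Of 56 measured genes 21 had lower means (37.5%, against 54.1% of all genes). Both Cre+ mice lay below both Cre- mice in 1 (1.79%, against 20.3% of all genes). They lay above in 9 (16.1%, the same share as of all genes). Their median level was 13.09, against 10.89 for the members and a highest value on the arrays of 14.4, and whether such high signals compress differences was not tested. With limma 0 passed an adjusted p of 0.05 and 0 had an unadjusted p under 0.05. The largest differences without overlap were 0.22 for Rpl12 (SE 0.15) and 0.06 for Rps14 (SE 0.03). Probe sets that carry several symbols were left out, and 28 of the 84 symbols of this list have no value here.

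Nucleotide synthesis genes resembled the processing factors in their counts. Lower means were seen in 13 of 15 (86.7%, against 54.1% of all genes; median -0.08). In 10 both Cre+ mice lay below both Cre- mice (66.7%, against 20.3% of all genes), and in 0 both lay above. Mthfd2, the mitochondrial folate enzyme gene, was at 10.28 and 10.31 (Cre+) against 10.61 and 10.54 (Cre-), a difference of -0.28 (SE 0.06). Ctps, the CTP synthase gene, differed by -0.22 (SE 0.08). Neither passed limma's threshold (adjusted p = 0.399 and 0.706). Of the 15 genes 3 had an unadjusted limma p under 0.05, all lower. At that level 2.74% of all genes were lower, and 4.42% of genes above the median level.

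Other polyamine genes and the partners of MYC did not share a direction. Of 6 measured polyamine genes 3 had lower means (50.0%, against 54.1% of all genes), with a median of -0.00. Dhps, which encodes the enzyme that uses spermidine to make hypusine, differed by -0.21 (SE 0.07) and Oaz2, an antizyme that limits ornithine decarboxylase, by 0.32 (SE 0.12). Of 16 MYC network genes 7 had lower means (43.8%), with a median of 0.02. Mlx differed by -0.13 (SE 0.07) and Usp28, which encodes a deubiquitinase that stabilises MYC, by 0.11 (SE 0.08), while Max, the obligate partner of MYC, differed by 0.03 (SE 0.05). Max was chosen after its values were seen. Proliferation genes had lower means in 11 of 14 (78.6%, against 54.1% of all genes) with a median of -0.02. Tyms (0.11, SE 0.05) and Rrm2 (-0.09, SE 0.05) had the largest differences without overlap. In none of these 3 lists did a gene pass limma's threshold. An unadjusted limma p under 0.05 was seen for 2 polyamine genes (1 lower, 1 higher), 0 MYC network genes and 0 proliferation genes. Of all genes, 6.86% had one.

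**Figure D4:**
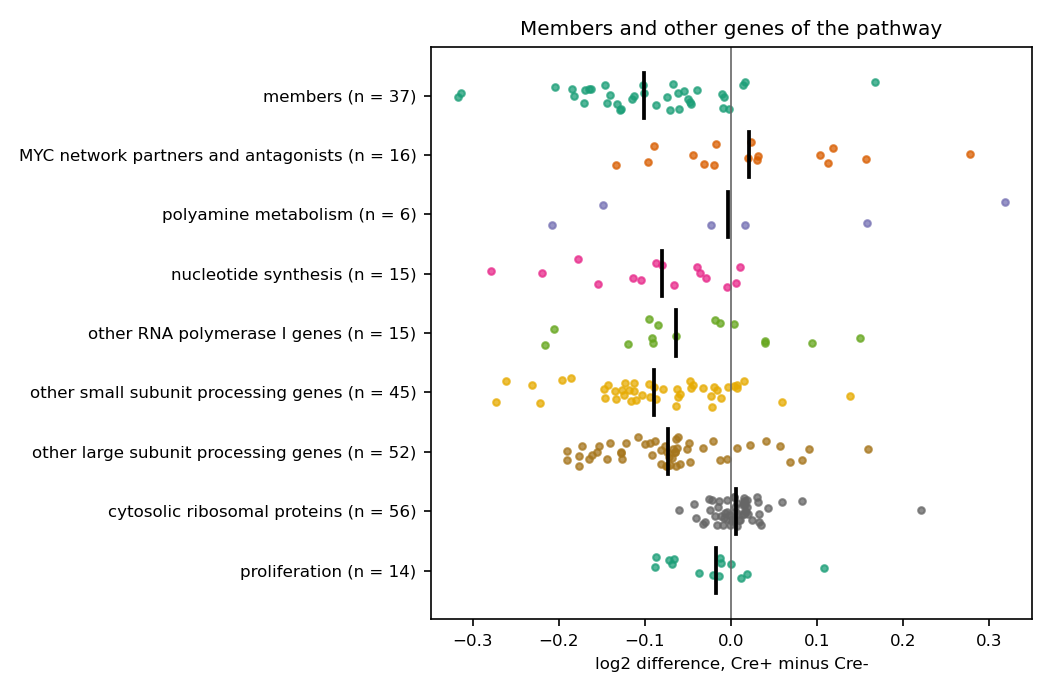
Log2 difference, Cre+ minus Cre- (horizontal axis), of the 37 members and of the genes of 8 further lists (points with random vertical scatter; black bars are medians). The members (-0.10), nucleotide synthesis genes (-0.08) and other processing genes (-0.09 and -0.07) have medians left of 0, and ribosomal protein genes are centred at 0.01.

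Markers of other cells were compared as summed levels (log2 of the sum of linear values). The sum over 10 early T lineage markers was 15.53 and 15.41 in Cre+ mice against 15.27 and 15.29 in Cre- mice. Of these markers 9 had higher means, while Cd2 was lower without overlap (-0.52, SE 0.14). That over 6 natural killer markers was 12.48 and 12.43 against 12.75 and 12.72, but these markers did not share a direction. Nkg7 (-1.04, SE 0.09) and Gzma (-0.19, SE 0.03) were lower without overlap. Klrb1c (0.10, SE 0.06) and Klrk1 (0.09, SE 0.07) were higher without overlap, and the median difference was -0.03. The sum over 7 B cell markers was 10.87 and 10.72 against 10.54 and 10.48. In this list Igll1 (1.38, SE 0.11) and Cd79b (0.25, SE 0.09) were higher without overlap, while 4 of the 7 had lower means and the median difference was -0.18. The sum over 4 coreceptor genes of DP and mature cells was 12.33 and 12.40 against 12.56 and 12.67, although Cd4 among them was higher in both Cre+ mice (7.88 and 7.94 against 7.26 and 7.47). The defining markers Ncr1 and Klrb1c were near the low end of the arrays, between 4.05 and 4.77, and the B cell marker Cd79a between 4.74 and 5.29. The 9 myeloid markers summed to between 12.01 and 12.06 in Cre+ mice and between 11.96 and 12.00 in Cre- mice, and Lyz2 among them was at 7.56 and 7.59 against 6.79 and 6.29. The 8 epithelial and stromal markers summed to 10.82 and 10.85 against 10.97 and 10.93, and the sums over 3 erythroid markers overlapped, between 7.84 and 8.04. The groups thus did not overlap in the sums of 6 of the 7 marker lists. For single genes, both Cre+ mice lay below both Cre- mice in 20.3% of all genes and above in 16.1%. The highest gene weighs most in such a sum. It was Cst3 for the myeloid list (11.75 to 11.81), Gzma for natural killer cells (12.25 to 12.48) and Cd79b for B cells (9.96 to 10.34). The part of these markers in the differences above was not tested.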

How the data were processed

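Total RNA was labelled with biotin in a 2-cycle protocol and hybridised to Affymetrix mouse gene arrays, per the labels' protocols. The authors deposited log2 expression values per probe set, which came from RMA according to the submitters' processing notes; that they are log2 was read off the values. Neither RMA's version nor a genome build is stated in the labels. The input RNA is given as 3 amounts under codes that are not tied to mice. No further normalization was applied.

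Groups came from the titles, and the series' design text gives 2 mice of each genotype; the treatment text names the Cre genotype on all 4 samples. Of 35556 probe sets, 21789 had 1 gene symbol, 1621 several (not named) and 12146 none listed in the platform annotation. By gene number 21698 were found in RefSeq and 0 symbols changed. All probe sets were fitted with limma 3.58.1 in R 4.3.3 (eBayes with an intensity trend; 2 residual and 2.99 prior degrees of freedom), with Benjamini-Hochberg adjustment and a threshold of 0.05. The mice have no shared numbers, and 2 against 2 mice allow no exact two-sided permutation p under 0.333. The fit was tested on simulated data with planted differences of 1 or 2 log2 units. These are larger than the difference of any member, so the simulation does not cover differences of the members' size.

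The members and lists were chosen with earlier results of these data known, so no test was made over a list. All members are named; of each other list, the 2 largest differences without overlap are named. Promoter stretches were to be shown for Myc, Rrs1, Rrp12 and Utp20, of which Utp20 had a window; the others were chosen after the motif was found. Protein features were not analysed here. Alternatives covered scaling, eBayes settings, array weights, filters on dim probe sets, the row per gene, sex as a block and each mouse left out.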

Additional observations from a re-analysis of the deposited data

How the results depend on the processing

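No member passed an adjusted limma p of 0.05 in any of the 15 alternative settings, and 29 of the 37 members kept the sign of their difference in all of them. The count with an unadjusted limma p under 0.05 was 9 as reported (6.63% of all probe sets had one). It was 8 after centring (6.66%) and 4 without an intensity trend. The median of the members was -0.091 after centring, -0.090 after quantile normalization, -0.092 after cyclic loess, -0.087 with the rows of a gene averaged, -0.097 in the female pair, and -0.10 to -0.084 with a mouse left out. Lower means numbered 29 to 35 in all settings. Groups lay fully below in 21 members after centring (17.3% of all genes did), 21 after quantile normalization (18.3%) and 20 after cyclic loess (18.5%). With the rows of a gene averaged they did in 26 (20.4%). Groups lay fully above in 1 member after centring (18.1% of all genes did) and after averaging of rows (16.1%). With a mouse left out they did in 3 to 5 members, against 28.2% to 35.2% of all genes. There a lone mouse overlaps less easily and is assumed to vary like the others. Large subunit processing had a median farther from 0 (-0.15) than small subunit processing (-0.13) without mouse 137. Rrp12 lay farther from 0 than Rrs1 after quantile normalization (-0.32 both after rounding) and without mouse 129 (-0.36 against -0.22) or 131 (-0.41 against -0.37). The median of small subunit processing was -0.15 after centring and after loess and -0.17 to -0.13 with a mouse left out. That of the MYC and metabolic genes was -0.095 with averaged rows and -0.14 to -0.083 with a mouse left out. That of RNA polymerase I transcription was -0.12 (without mouse 131) to -0.035 (without mouse 137), and that of the multifunctional nucleolar proteins -0.069 to -0.026 (without mouse 129). Differences near 0 turned sign, and the cause was not tested: Myc to 0.0082 after centring, 0.016 after quantile normalization and 0.0055 after loess, Polr1c to 0.0018, 0.014 and 0.0018, Npm1 to 8.75e-05 after centring, Gar1 to 0.0022 after quantile normalization and Fbl to -0.017 with averaged rows. With a mouse left out Myc lay between -0.059 and 0.056, Polr1c between -0.053 and 0.036, Npm1 between -0.066 and 0.046, Gar1 between -0.081 and 0.060, Ltv1 between -0.11 and 0.019, Dkc1 between -0.13 and 0.054, and Polr1a between -0.15 and 0.022. Of the other lists, the median of polyamine metabolism was 0.0063 after centring and -0.032 to 0.025 with a mouse left out. That of proliferation was -0.047 to 0.0033, that of the MYC network -0.038 to 0.089 and that of ribosomal proteins -0.00084 to 0.012. The groups share no replicate numbers to pair the mice by. With sex, read from Xist, as a block, 0 members passed the adjusted threshold and 6 had an unadjusted p under 0.05. Arrays have no read depth, and signal over background was not analysed here.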

Other observations

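The E-box CACGTG was also counted in the promoter windows of the other lists. It was found in 9 of 38 other small subunit processing genes (23.7%), 8 of 47 other large subunit processing genes (17.0%), 3 of 15 other RNA polymerase I genes (20.0%) and 3 of 14 nucleotide synthesis genes (21.4%). Lists whose medians were not lower held it at similar shares: 4 of 15 MYC network genes (26.7%), 2 of 9 polyamine genes (22.2%) and 2 of 10 stress genes (20.0%). In cytosolic ribosomal protein genes it was found in 6 of 61 (9.84%) and in proliferation genes in 1 of 13 (7.69%), against 8.09% of all genes with a window. These shares are descriptions without a test, and the base composition of the windows was not analysed here.

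TGGGAA, the core of the motif that Ikaros binds, was searched on both strands in the same windows. It was found in 12 of 31 members (38.7%), against 28.3% of all genes with a window. The 12 were Ddx21, Mybbp1a, Nhp2, Noc3l, Nop16, Nop58, Polr1b, Polr1c, Ppan, Rrp9, Tsr1 and Ubtf. Both motifs were found in Mybbp1a and Tsr1.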
